A study of Mus musculus with 2 samples.

Results

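The cells described here were the tumor cells with the highest summed share of 4 transcripts, Klk10, Cst6, Sfn and Dynap, in 2 single-cell RNA-seq libraries of EMT6 tumors. They were chosen by measured values: within each library, the 5% of tumor cells with the highest score, the summed UMIs of the 4 genes as a percent of the cell's UMIs, were taken. This gave 307 of 6143 tumor cells in the Olaparib + LLY-283 tumors and 77 of 1545 in the Combo tumors, 384 of 7688 tumor cells and of 23657 deposited cells in all. They are called high-score cells below, and the remaining 5836 and 1468 tumor cells are called other tumor cells. EMT6 is a mouse mammary carcinoma line, here grown under the skin of BALB/c mice with an intact immune system. One library came from tumors treated with the PARP inhibitor Olaparib and the PRMT5 inhibitor LLY-283, and the other, named Combo, from tumors given both drugs and an antibody against PD-1. Each library was made from pooled tumors of 3 mice and there was 1 library per group, so there were no replicates, no test was made, and treatment, mice and library cannot be told apart. Brackets hold 95% intervals (exact Poisson for levels and their ratios, Clopper-Pearson for shares), which cover counting error only.

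The 4 genes are known from epithelia. Kallikreins such as Klk10 are secreted serine proteases of the skin and glands, and Cst6 (cystatin E/M) inhibits the cysteine protease legumain and some cathepsins. Sfn (14-3-3 sigma) is an epithelial adaptor protein that p53 can induce, and Dynap encodes a membrane protein that binds dynactin. Several of them are also found in carcinoma cells, where local hypoxia, growth factor signaling and contact with the matrix are known to make cells of one tumor differ.

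A tumor cell was a cell with at least 200 genes, under 20% mitochondrial UMIs, at least 2000 UMIs and at least 2 UMIs of Krt8 and Krt18 together. Cells with 0.02% or more of UMIs from Tyrobp and Ptprc or from Col5a2, with 2 or more UMIs of Il24, or with 0.05% or more from 5 genes of G2 and mitosis were left out. Median depth was 7103 UMIs in high-score cells and 8716 in other tumor cells of the Olaparib + LLY-283 tumors, and 32404 and 42175 in the Combo tumors. High-score cells were thus shallower in both libraries, and cells of the Combo tumors were several times deeper. Median genes per cell were 2411 and 2775 in the first library and 5623 and 6088 in the second. The median mitochondrial share was 1.02% and 1.04%, and 1.27% and 1.19%. The libraries shared 39 cell barcodes, of which 2 were tumor cells in both and 0 were high-score cells in both.

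The score had 1 peak and a long tail, with no gap where the cells were divided. The lowest high-score cell stood at 0.1722% in the Olaparib + LLY-283 tumors and 0.1251% in the Combo tumors, and the highest of the other tumor cells at 0.1721% and 0.1246%. The median of all tumor cells was 0.0674% and 0.0464%. Within 10% below the dividing value lay 164 and 26 cells, and within 10% above it 104 and 19 of the high-score cells. The class is therefore the top of a range and not a separate cluster.

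**Figure D1:**
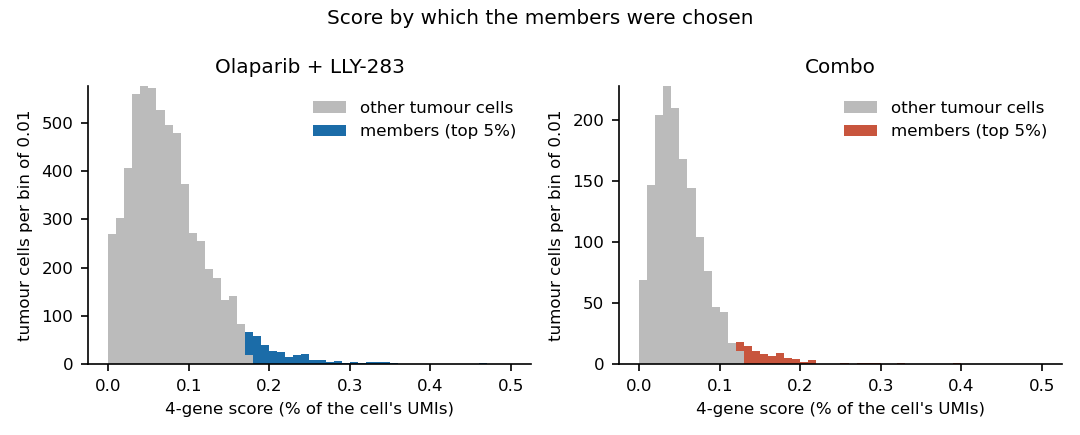
Histogram of the 4-gene score (percent of each cell's UMIs, horizontal axis, bins of 0.01) over tumor cells of the Olaparib + LLY-283 (left) and Combo (right) libraries, with high-score cells in color and other tumor cells in grey. The colored cells continue the tail of the grey ones, from 0.172% and 0.125% upward.

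Dynap dominated the score. It gave 64.5% of the 4 genes' UMIs in high-score cells of the Olaparib + LLY-283 tumors and 61.6% in the Combo tumors, and it was the most abundant of the 4 in 262 of 307 and 71 of 77 cells. Klk10 gave 2.64% and 2.20% and led in 2 and 0 cells. A UMI of Klk10 was found in only 26.7% [21.8 to 32.0] of high-score cells of the first library and 42.9% [31.6 to 54.6] of the second. The working description of these cells as Klk10-, Cst6- and Sfn-expressing cells went against the data in this respect: by level they were first of all Dynap-high.

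The levels of the 4 genes follow as a description, since they chose the cells. A level is given in CPM, the UMIs of the gene per 1000000 UMIs summed over the cells. Dynap (ENSMUSG00000024512; mm10, chromosome 18, 70240429 to 70244582, minus strand) stood at 1386 CPM in high-score cells and 421 CPM in other tumor cells of the Olaparib + LLY-283 tumors, and at 1036 and 277 CPM in the Combo tumors. Cst6 (ENSMUSG00000024846; chromosome 19, 5344705 to 5349574, minus strand) stood at 360 and 124 CPM, and at 291 and 93.5 CPM. Sfn (ENSMUSG00000047281; chromosome 4, 133600556 to 133602168, minus strand) stood at 346 and 151 CPM, and at 318 and 122 CPM. All 3 were thus often detected in other tumor cells too, with a UMI of Dynap in 88.9% and 94.6% of these. Cells of any type without a keratin UMI held Dynap at 311 CPM in the first library and 75.3 CPM in the second. The part of RNA from outside the cell in these values was not tested. Klk10 (ENSMUSG00000030693; chromosome 7, 43781035 to 43785410, plus strand) was the rare gene, at 56.6 and 15.6 CPM in the first library and 36.9 and 3.75 CPM in the second. It lies in a cluster of kallikrein genes. Of its neighbors there, Klk8 alone was abundant enough to be compared, with 529 and 635 UMIs over all tumor cells, and its log2 ratio of high-score over other tumor cells was 0.31 and -0.15.

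To see whether the 4 genes went together, cells were chosen anew on 3 genes and the level of the gene left out was read. Klk10 was 2.55-fold [2.06 to 3.11] higher in cells so chosen in the Olaparib + LLY-283 tumors, at 41.3 against 16.3 CPM, and 8.40-fold [6.49 to 10.7] higher in the Combo tumors, at 32.9 against 3.93 CPM. Dynap was 1.49-fold [1.42 to 1.56] and 2.08-fold [1.98 to 2.18] higher, Cst6 1.37-fold [1.24 to 1.51] and 2.00-fold [1.82 to 2.18], and Sfn 1.22-fold [1.11 to 1.33] and 1.70-fold [1.55 to 1.85]. All 8 values were above 1 with intervals clear of it, and each was smaller than the ratio in cells chosen on all 4 genes. After thinning to 2000 UMIs, the share of cells with a UMI of Dynap was 54.7% in other and 63.8% in chosen cells of the first library and 41.2% and 58.4% in the second, and for Klk10 it was 2.69% and 7.49% in the first library. The differences for Dynap, 9.17 and 17.2 percentage points, were 1.85 and 2.65 without thinning. Those for Klk10 were 9.59 and 30.05 without thinning. For Cst6 in the first library the thinned share was 20.99% and 27.7%. This difference of 6.70 percentage points was 1.103 after thinning to 1000 UMIs and turned to -1.33 without thinning. In the second, Klk10 stood at 0.886% and 2.60% [0.316 to 9.07] of thinned cells, a difference that was not detectable at this depth.

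The larger ratios of the Combo tumors were read at unequal depth. With every cell thinned to 5000 UMIs before the choice, which kept 5236 and 1514 cells, the left-out gene was higher by 1.87-fold [1.31 to 2.61] and 3.40-fold [1.28 to 7.68] for Klk10, 1.29-fold [1.20 to 1.39] and 1.44-fold [1.22 to 1.68] for Dynap, 1.36-fold [1.18 to 1.55] and 1.19-fold [0.863 to 1.61] for Cst6, and 1.11-fold [0.965 to 1.27] and 1.75-fold [1.37 to 2.21] for Sfn. At this equal depth the intervals of the 2 libraries overlapped for Klk10, Dynap and Cst6 and lay apart for Sfn, and those of Sfn in the first library and Cst6 in the second included 1. A further check chose the cells on a random 50% of their UMIs and read the rest, in which the 4 genes together were 2.18-fold [2.08 to 2.28] and 3.08-fold [2.94 to 3.22] higher. Its cells were not thinned, so these 2 values are again at unequal depth, with medians of 6923 and 33574 UMIs in the chosen cells.

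**Figure D2:**
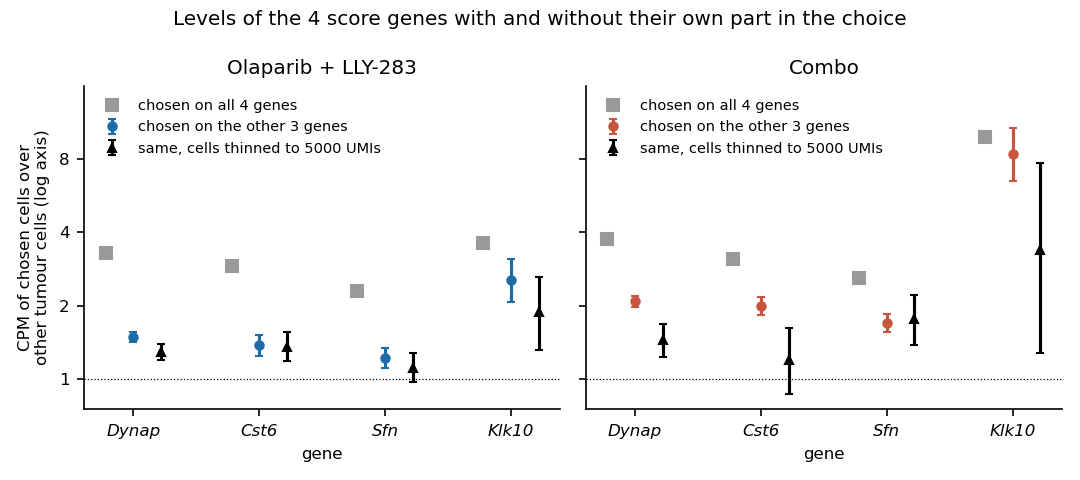
Ratio of CPM in chosen cells over other tumor cells (log axis) for each of the 4 genes in both libraries, with grey squares for cells chosen on all 4 genes, colored circles for cells chosen on the other 3 genes, and black triangles for the same choice on cells thinned to 5000 UMIs. Bars are 95% counting intervals. Circles lie below the squares and above 1, with Klk10 in the Combo tumors highest at 8.40.

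From cell to cell the 4 genes were only loosely tied. Across the 6143 tumor cells of the Olaparib + LLY-283 tumors the Pearson correlation of their shares of UMIs ranged from -0.02 for Cst6 with Sfn to 0.14 for Sfn with Dynap, and across the 1545 of the Combo tumors from 0.04 to 0.25 for the same pairs. The cells of each correlation share a library and differ in depth. On the logarithm of thinned counts the correlation of Sfn with Dynap was 0.083 and 0.11. That of Cst6 with Sfn was -0.007 and 0.003. All 4 genes were found in 17.9% of high-score cells and 5.81% of other tumor cells of the first library, and in 41.6% and 9.88% of those of the second, without thinning. After thinning to 2000 UMIs these became 4 of 307 high-score and 7 of 5836 other tumor cells of the first library, and 2 of 77 and 0 of 1468 of the second, where a count of 0 allows a share of up to 0.204%. Cells chosen without Dynap shared 121 of 307 and 34 of 77 cells with the high-score cells, whereas cells chosen without Klk10 shared 291 and 76.

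In genes that the score did not use, high-score cells had more high-score neighbors than their share of tumor cells, although most neighbors were other tumor cells. Of their 20 nearest neighbors in 30 principal components without the 4 genes, 8.73% were high-score cells in the Olaparib + LLY-283 tumors, where they made up 5.00% of tumor cells, and 11.04% in the Combo tumors, where they made up 4.98%. In the same space 72 of 307 and 19 of 77 had no high-score neighbor. These values are from thinned cells, and without thinning 8.22% and 17.5% of the neighbors were high-score cells.

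Keratins were part of the choice of tumor cells, since each cell needed 2 UMIs of Krt8 and Krt18, so their levels are a description and no check of the label. These simple-epithelial keratins were summed at 1348 and 944 CPM in high-score and other tumor cells of the first library and at 960 and 751 CPM in the second, and all 5 tumor markers were detected in high-score cells of both. Skin keratinocyte markers were few, although the leading genes are known from skin. Of 11 such markers, Krt15, Krt1, Krtdap, Dsg3 and Dsc3 had 0 UMIs in high-score cells of both libraries and Krt5 in the second. The summed level was 760 against 770 CPM and 702 against 638 CPM, nearly all of it Lgals7 at 743 and 693 CPM in high-score cells. Of 11 keratins of stratified epithelium, 0 reached 200 UMIs over tumor cells, and their sum was 11.9 and 1.48 CPM in high-score cells. Of 26 cornified envelope genes 3 did, and 0 of these 3 were past 1.5-fold in both libraries, with 1 higher in the first library alone. Over all genes 2.12% were higher and 2.37% lower in both libraries, and 3.71% were higher in the first. A count in so few genes is therefore no result about them.

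For all other genes, the log2 ratio of CPM in high-score over other tumor cells was computed in each library for the 9984 genes with at least 200 UMIs over the tumor cells of each. Because the cells were chosen on the same UMIs, this is a description. Past 1.5-fold in the same direction in both libraries, 212 genes (2.12%) were higher and 237 (2.37%) lower. By library, 370 (3.71%) were higher and 609 (6.1%) lower in the Olaparib + LLY-283 tumors, and 812 (8.13%) and 998 (10%) in the Combo tumors, so that 57.3% and 26.1% of the 2 lists of higher genes were shared. The median of all genes was -0.03 in both libraries, 26 genes were past 1.5-fold in opposite directions, and the Pearson correlation of the ratios across genes, which are not independent, was 0.53. Of the 366 tested genes of the pathway lists, 34 (9.29%) were higher and 13 (3.55%) lower. The lists were chosen with earlier results of these data known. They include the genes of scores for other groups of these tumor cells (Sox9, Areg, Bdnf and Adm, and Mgp, Omd and Ogn). List shares set beside the shares over all genes, here and below, are therefore a description and no independent result.

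**Figure D3:**
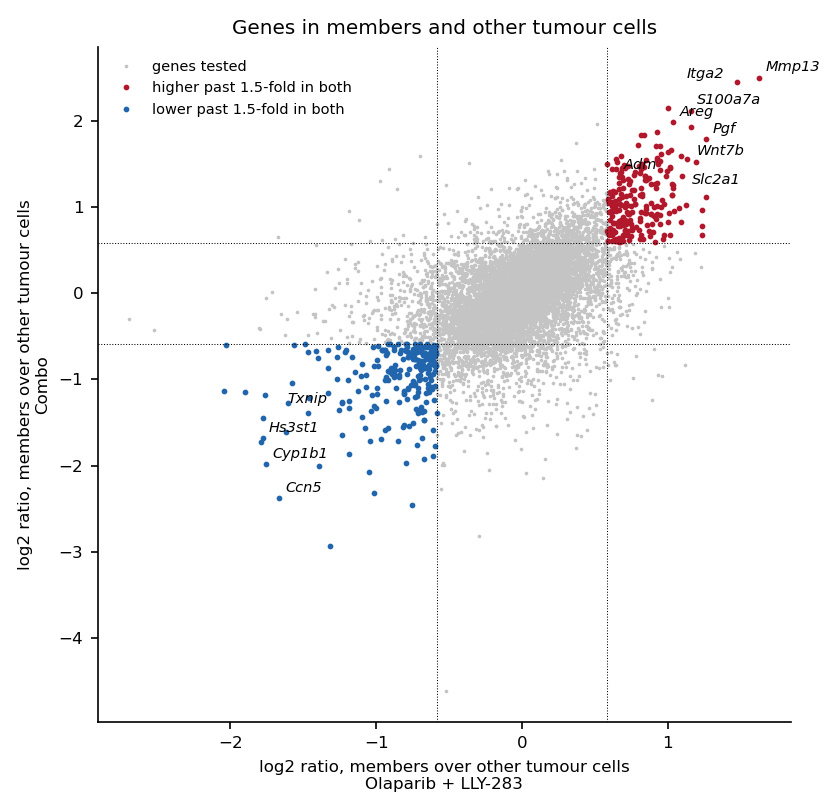
Log2 ratio of CPM in high-score over other tumor cells for the 9984 genes compared, Olaparib + LLY-283 on the horizontal and Combo on the vertical axis. The 212 genes higher past 1.5-fold in both libraries are red and the 237 lower ones blue, with dotted lines at 1.5-fold.

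Among the higher genes, ranked by the smaller of the 2 libraries' ratios, the first was Mmp13, a collagenase, at 23.8 against 7.74 CPM in the Olaparib + LLY-283 tumors and 17.0 against 3.02 CPM in the Combo tumors (log2 ratios of 1.63 [1.21 to 2.01] and 2.502 [1.99 to 2.96]). It was carried by few cells, 32 of 307 and 13 of 77, and 1 cell held 28.3% of its 46 UMIs in Combo high-score cells. Itga2, the alpha 2 chain of a collagen-binding integrin, followed at 1.47 [0.93 to 1.94] and 2.45 [2.00 to 2.85], and Pgf, a placental growth factor of the VEGF family, at 1.26 and 1.79. Tshz1, S100a7a, Tubb3, Wnt7b and Itga6 came next, with smaller values of 1.19, 1.16, 1.16, 1.13 and 1.12. Wnt7b is a secreted Wnt ligand, Tubb3 a beta tubulin best known from neurons and S100a7a a calcium-binding protein of skin. The other leading genes were Slc2a1, Pvr, Gprc5a, Hmga1, Areg, Acap1, AI661453, Gpr137b, Kcnn4, Clip4, Gm43343 and Adm, with log2 ratios from 1.01 to 1.13 in the Olaparib + LLY-283 tumors and from 1.03 to 1.99 in the Combo tumors. Pvr is a ligand of the immune receptors TIGIT and CD226, and Kcnn4 a calcium-activated potassium channel. All 20 of these genes were higher with intervals clear of 0 in both libraries, but Acap1, on 17 and 21 UMIs, turned to -0.43 and -0.28 when cells were thinned to 5000 UMIs.

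Genes of hypoxia and glucose uptake were prominent. Slc2a1, the glucose transporter GLUT1, stood at 549 against 257 CPM in the Olaparib + LLY-283 tumors and 668 against 259 CPM in the Combo tumors. Per cell, its median was 466 CPM in high-score and 171 CPM in other tumor cells of the first library, and 587 and 166 CPM in the second, with 80.5% and 92.2% of high-score cells above the median of the others. Adm, the vasodilator peptide adrenomedullin, stood at 368 against 183 CPM and 600 against 218 CPM. Of 18 tested genes of the list, Slc2a1, Vegfa, Ndrg1, Adm and Ankrd37 were past 1.5-fold in both libraries, beside 2.12% of all genes, and 0 were lower. Vegfa, the main angiogenic factor, had log2 ratios of 0.75 and 0.80, and Ndrg1, a hypoxia-induced gene, of 0.92 and 1.22. Among glycolytic enzymes, Hk2 was at 0.50 and 1.01, Ldha at 0.09 and 0.10, Pkm at 0.06 and 0.06 and Eno1 at -0.03 and 0.01. The list median was 0.33 and 0.54, beside -0.03 over all genes. By library, 5 of the 18 were higher in the Olaparib + LLY-283 tumors and 9 in the Combo tumors, where 3.71% and 8.13% of all genes were.

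Some ligands of the EGF receptor and genes known to be induced by ERK were also higher. Past 1.5-fold in both libraries were 2 of 5 tested genes of EGF receptor ligands and receptors, 4 of 15 ERK output genes, with 1 lower, and 3 of 9 AP-1 genes, beside 2.12% higher and 2.37% lower over all genes. Areg, the EGF receptor ligand amphiregulin, stood at 806 against 393 CPM and 838 against 211 CPM, or 1.04 [0.971 to 1.102] and 1.99 [1.92 to 2.05] on the log2 scale, with 75.2% and 84.4% of high-score cells above the median of the others. Hbegf, another ligand, stood at 359 against 190 CPM and 372 against 114 CPM. The receptor gene Egfr did not follow, at log2 ratios of 0.02 and -1.43. Of 15 genes induced by ERK, the phosphatases Dusp4 and Dusp5 and the feedback inhibitors Spry2 and Spry4 were higher (Dusp5 at 0.84 and 1.83), while Spry1 was lower at -0.79 and -1.23. The counting interval of Spry4 included 0 in the first library, and without the top cell of each it was at 0.42 and 1.21. Egr1 and Dusp6 were at -0.12 and -0.37, and at -0.10 and 0.25. Among AP-1 transcription factor genes Fosl1 (0.67 and 1.095), Atf3 (0.64 and 1.55) and Maff (0.64 and 1.00) were past 1.5-fold, and the immediate early gene Fos stood at -0.52 and -0.43. In the Combo tumors 1 cell held 26.3% of the Atf3 UMIs of high-score cells, and without the top cell of each library Atf3 was at 0.56 and 1.14.

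Several other lists held a few genes past 1.5-fold in both libraries, beside 2.12% higher and 2.37% lower over all genes. Of 10 tested genes of the plasminogen system and serpins, Plau and Plaur were past 1.5-fold in both libraries, and the list median was 0.13 and 0.06. Plau, the plasminogen activator urokinase, stood at 155 against 77.6 CPM and 284 against 91.3 CPM, and its receptor Plaur at 135 against 81.9 CPM and 179 against 71.5 CPM. F3, the tissue factor that starts coagulation, had log2 ratios of 0.84 and 1.37. Among genes of hemidesmosomes and their laminin, the integrin chains Itga6 and Itga2 were higher past 1.5-fold. Of the epithelial transcription factors Klf5 (0.59 and 1.496) and Sox9 (0.96 and 1.61) were higher, 2 of 6 tested, although without the top cell of each library Klf5 was at 0.55 and 1.42, short of 1.5-fold in the first. Of 14 tested TGF-beta and BMP genes 1 was higher and 1 lower in both libraries, with a list median of -0.06 and 0.02. The higher one was Inhba, which encodes the activin A chain, at 306 against 166 CPM and 321 against 133 CPM, and the lower one Id3, an inhibitor of differentiation induced by BMP signals, at 91.9 against 185 CPM and 98.2 against 247 CPM. Il33, an alarmin cytokine, stood at 119 against 64.3 CPM and 187 against 107 CPM. Il33 and Vegfa were 2 of 15 tested chemokine and cytokine genes higher in both libraries, with a list median of 0.08 and 0.38. Wwc1, of the Hippo pathway, was at 0.90 and 0.89. F3 and Wwc1 were 2 of 14 tested target genes of YAP, the effector of that pathway, with a list median of 0.20 and 0.33.

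Some stress genes were higher as well, and the counts here stand beside 2.12% of all genes higher in both libraries and 8.13% higher and 10% lower in the Combo tumors. Hspb1, a small heat shock protein, stood at 1635 against 1023 CPM and 2049 against 772 CPM, and Hspa1b, an inducible Hsp70, at 280 against 174 CPM and 393 against 144 CPM. With Hspa1a these were 3 of 12 heat shock genes, and the list median was 0.31 and 0.83. In the Combo tumors 8 of the 12 were higher. Hspa1a rested on 19 and 16 UMIs, and 1 cell held 36.8% and 43.8% of them, without which it was at 0.21 and 0.14. The constitutive chaperones Hspa8 (-0.03 and -0.05) and Hsp90ab1 (-0.04 and 0.02) were even. Heat shock genes can be induced while tissue is dissociated, and the part of dissociation in these values was not tested. Of 20 p53 target genes, Mdm2 (0.78 and 1.03) and Gdf15 (0.92 and 1.27) were higher, and the list median was -0.19 and 0.05. Sfn is itself on that list and was left out of its count. Hmox1, a heme oxygenase, was at 0.68 and 1.39, with 23.6% of its UMIs in Combo high-score cells in 1 cell. It was the 1 of 16 NRF2 and glutathione genes past 1.5-fold in both libraries, and in the Combo tumors 2 were higher and 3 lower. Of 14 ATF4 stress genes Trib3 was higher in both, and 6 were higher in the Combo tumors, with a list median of 0.23 and 0.52.

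The lower genes included cholesterol synthesis. Of 17 tested genes 5 were past 1.5-fold lower in both libraries, among them Mvk, Idi1, Fdps and Lss, beside 2.37% of all genes, and 0 were higher, with a list median of -0.40 and -0.73. Fdps, the farnesyl diphosphate synthase, stood at 125 against 193 CPM and 147 against 296 CPM, and Mvk, the mevalonate kinase, at 11.5 against 24.6 CPM and 15.9 against 34.2 CPM. Idi1, an isomerase of the same route, was at -0.64 and -1.06. The interval of Lss reached past 0 in the first library. Not every gene of the route was lower: Sqle was at 0.17 and -0.13. Summed over the list, the level was 981.5 against 1214 CPM and 912 against 1427 CPM. By library, 5 of the 17 were lower in the Olaparib + LLY-283 tumors and 11 in the Combo tumors, where 6.1% and 10% of all genes were.

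S phase genes had a median log2 ratio of -0.39 and -0.45 over 24 genes, of which Cdc6, Dtl and Clspn were past 1.5-fold lower in both libraries, beside 2.37% of all genes. By library, 3 of the 24 were lower in the Olaparib + LLY-283 tumors and 10 in the Combo tumors. Over all genes 6.1% and 10% were lower. Per cell, the median share of UMIs from S phase genes was 0.0533% in high-score and 0.0608% in other tumor cells of the first library, and 0.04999% and 0.0459% in the second, where it thus went the other way. Across tumor cells its Spearman correlation with the score was 0.03 and 0.10. Clspn, a replication checkpoint adaptor, stood at 15.1 against 26.5 CPM and 7.38 against 29.7 CPM. The 20% of tumor cells with the highest share of S phase genes held 39 of the 307 high-score cells (12.7% [9.19 to 17.0]) and 8 of the 77 (10.4% [4.59 to 19.4]). With those cells left out, 180 genes were still higher and 209 lower, and 144 and 129 of these were among the 212 and 237. G2 and mitosis genes, of which some had set the limit on tumor cells, had a median of -0.01 and -0.05.

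Of 15 tested mesenchymal genes, Col3a1 alone was past 1.5-fold lower in both libraries, beside 2.37% of all genes, and 0 were higher, with a list median of -0.33 and -0.22. Ogn, the proteoglycan osteoglycin, stood at 319 against 521 CPM and 372 against 670 CPM, Col3a1 at 314 against 489 CPM and 331.5 against 565 CPM, and Ccn5, a matricellular protein, at 7.53 against 24.6 CPM and 4.80 against 25.8 CPM. The fibroblast markers moved with these genes: all 9 were detected in high-score cells, Col3a1 was the most abundant, and their sum was 732 against 1044 CPM in the first library and 840 against 1358 CPM in the second. Their part in the result was not tested. Col1a1 was at -0.50 and -0.68, whereas Vim and Fn1, which mesenchymal cells also express, were at 0.15 and 0.22 and at 0.07 and 0.02.

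The genes ranked lowest were mostly sparse. Cyp1b1, a cytochrome P450 enzyme, led with 3 UMIs in high-score cells of each library and log2 ratios of -1.76 [-4.26 to -0.41] and -1.98 [-4.49 to -0.64]. Gprc5b, Hs3st1, Itga1, Pde5a, Dcxr, Cpeb3, Aspn, Lrrc40 and Zfp961 followed on 3 to 10 UMIs per library. Of these, all but Itga1 and Pde5a changed sign in at least 1 library under an alternative given below. On somewhat more UMIs, 8 to 51 per library, were Slc6a2, a noradrenaline transporter, at 3.96 against 12.6 CPM and 7.02 against 17.3 CPM, Txnip, an inhibitor of glucose uptake, at 5.15 against 12.6 CPM and 9.23 against 22.7 CPM, and AW112010, an interferon-induced long noncoding RNA, at 3.17 against 8.02 CPM and 18.8 against 48.8 CPM. Slc6a2 turned to 0.0537 in the Combo tumors when cells were chosen without Dynap and within bins of depth. Interferon genes had a median of -0.20 and -0.11 over 27 genes. Past 1.5-fold, 3 of them were lower in the first library, where 6.1% of all genes were, and 8 lower and 1 higher in the second, where 10% and 8.13% of all genes were, and Ifit2 was the one lower in both, on 10 and 9 UMIs. Beside the 2.12% higher and 2.37% lower over all genes, the counts of the next 2 short lists say little. MHC class I genes had 0 of 12 past 1.5-fold in both libraries, 1 lower in the Combo tumors alone, and a median of -0.08 and -0.05. The 16 genes around PRMT and PARP enzymes had 0 past 1.5-fold in both libraries, 2 lower in the Olaparib + LLY-283 tumors alone, and a median of -0.09 and -0.04.

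**Figure D4:**
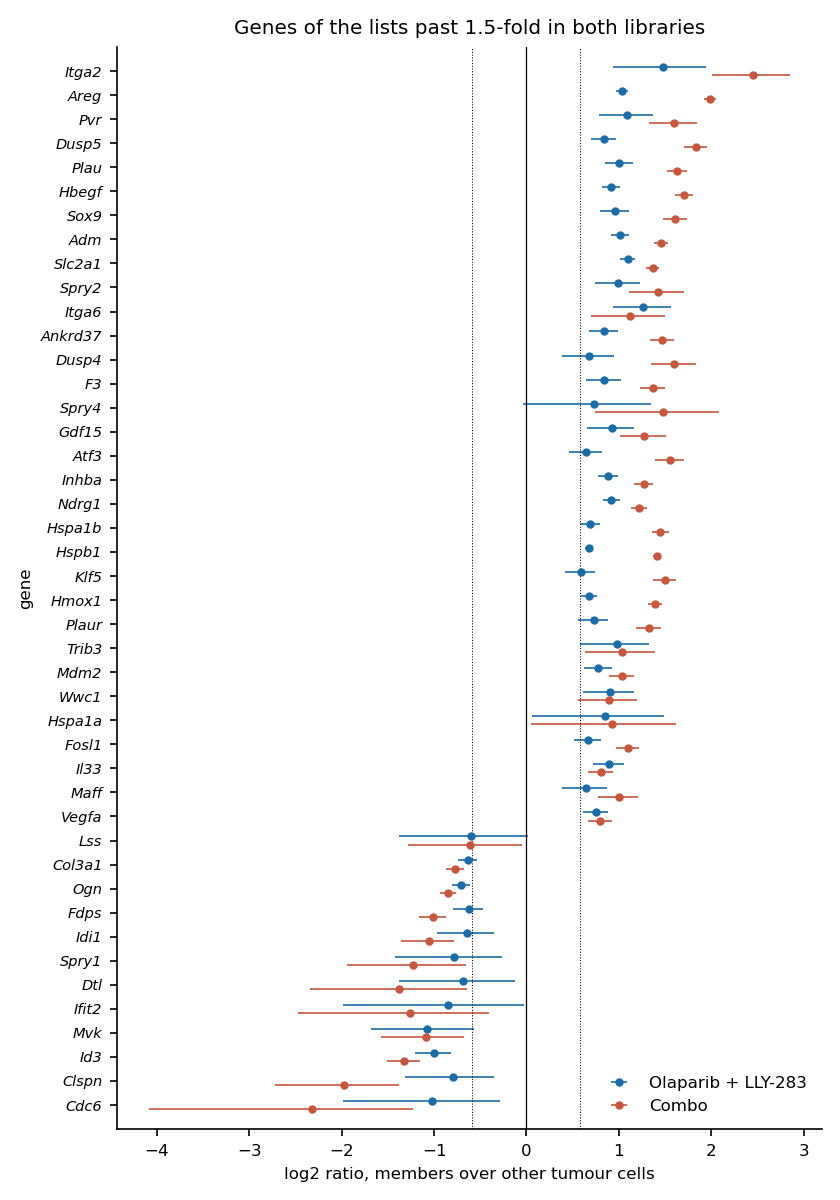
Log2 ratio of CPM in high-score over other tumor cells for pathway list genes past 1.5-fold in both libraries, sorted by their mean, with 95% counting intervals (blue, Olaparib + LLY-283; red, Combo). Dotted lines mark 1.5-fold. Itga2 and Areg stand at the top and Cdc6 and Clspn at the bottom.

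Along the score, levels of several genes differed over its whole range, the step into the top group included. From the lowest to the highest twentieth of tumor cells by score, Slc2a1 went from 154 to 549 CPM in the Olaparib + LLY-283 tumors and from 178 to 668 CPM in the Combo tumors. In the twentieth just below the high-score cells it stood at 403 [381 to 427] and 401 [380 to 423] CPM, so that the last step was larger than counting error in both libraries. The twentieths are nearly equal in cells and not in score. The last one spans 0.172% to 0.469% and 0.125% to 0.400%, a wider range than the one below it. A larger last step is therefore no sign of a separate jump. Areg went from 184 to 806 CPM and from 112 to 838 CPM, with 667 and 412 CPM in the twentieth below, and Adm from 79.3 to 368 CPM and from 76.6 to 600 CPM. AW112010 ran the other way in the Combo tumors, from 110 to 18.8 CPM. Depth differed along the score too. The median was 5610 UMIs in the lowest, 9228 in the middle and 7103 in the highest twentieth of the first library, and 23984, 43286 and 32404 in the second. Choosing the top 5% within each of 10 bins of cells by UMIs left 155 genes higher, 134 of them among the 212, and 142 lower, against 237.

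**Figure D5:**
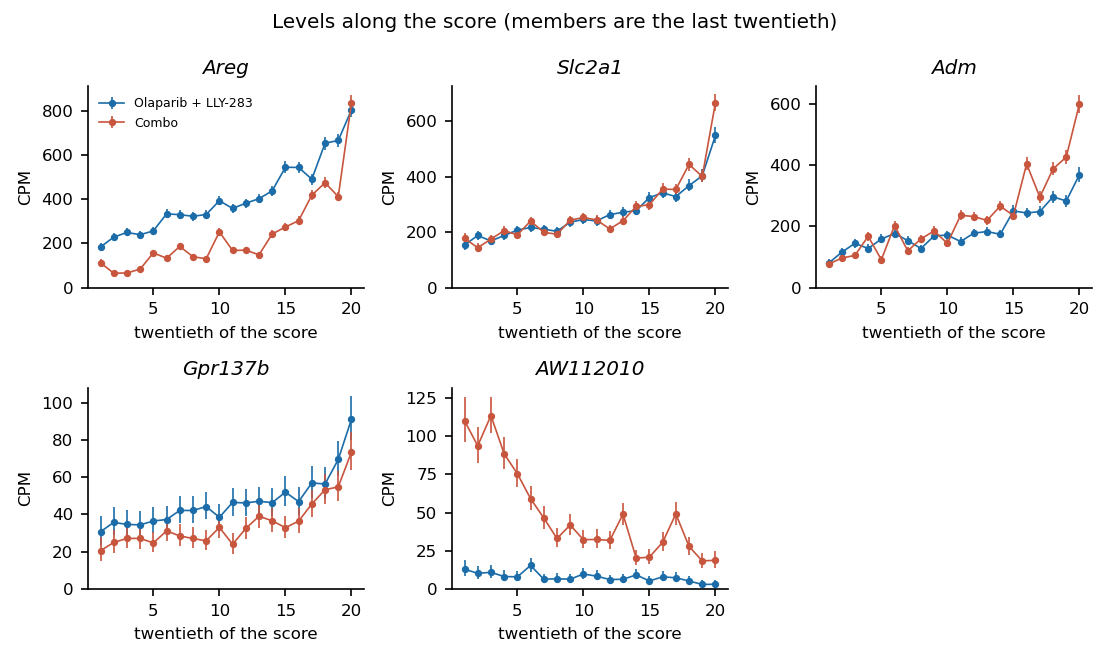
CPM of 5 genes (vertical axes, from 0) in 20 groups of tumor cells of rising 4-gene score (horizontal axes; group 20 holds the high-score cells), with 95% counting intervals (blue, Olaparib + LLY-283; red, Combo). Areg, Slc2a1, Adm and Gpr137b climb along the score and AW112010 declines, and Slc2a1 and Areg have a visible step from group 19 to group 20 in both libraries. Groups are nearly equal in cells, and group 20 spans a wider range of score than group 19.

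The number of genes past 1.5-fold moved with the way the cells were chosen. In cells chosen on Klk10, Cst6 and Sfn alone, 60 genes were higher and 63 lower past 1.5-fold in both libraries, 39 and 28 of them among the 212 and 237, and of the list genes 9 were higher and 4 lower. With a score on cells thinned to 2000 UMIs, 77 genes were higher and 81 lower, although Dynap was part of it. Cells so chosen shared only 140 of 307 and 30 of 77 cells with the high-score cells. High-score cells held a median of 15 and 54 UMIs of the 4 genes, and at least 4 and 5. The part of counting error in the choice of cells was not tested. Leaving out Klk10, Cst6 or Sfn instead kept the count of higher genes between 204 and 232. For Areg, Slc2a1 and Adm the log2 ratio stayed above 0 under every alternative run, with lowest values of 0.59 and 0.89 for Areg, 0.56 and 0.42 for Slc2a1 and 0.58 and 0.50 for Adm. Single cells mattered for some higher genes: without the cell that held the most UMIs of a gene in each library, 145 of the 212 higher genes were still past 1.5-fold, and of the 48 genes among the 20 leading and the higher list genes 43 were, whereas Atf3, Hspa1a, Klf5 and Spry4 were among those that were not.

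High-score cells overlapped in part with tumor cells high in Sox9, Areg, Bdnf and Adm. Of the 307 and 77 high-score cells, 43 (14.01% [10.3 to 18.4]) and 20 (26.0% [16.6 to 37.2]) were in the top 5% by the summed share of those 4 genes. The overlap was thus above the 5.00% and 4.98% that such cells made up of tumor cells, while 264 and 57 high-score cells were not among them. With all such cells left out, 170 genes were higher, 144 of them among the 212, and 197 lower, 151 of them among the 237. With the matrix genes Mgp, Omd and Ogn the overlap was 7 of 307 (2.28% [0.922 to 4.64]) and 3 of 77 (3.90% [0.811 to 10.97]). Of the tumor cells left out only for their G2 and mitosis genes, 6.55% [5.85 to 7.30] of 4568 and 7.59% [5.97 to 9.50] of 922 reached the score of the lowest high-score cell, at median depths of 12096 and 57536 UMIs.

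Between the libraries, high-score cells resembled each other in most genes. Of 3574 genes with at least 200 UMIs over high-score cells of the 2 libraries, 9 were over 2-fold apart, and 0 of these were over 2-fold apart the same way in other tumor cells. That 0 depends on the 2-fold limit, since some of the 9 came close to it there. Across genes, which are not independent, the log2 difference between libraries in high-score and in other tumor cells had a Pearson correlation of 0.44. Higher in the Combo tumors were Cd74 (86.4 against 16.6 CPM), Lars2, Bag3, Cebpd and Gm42418. Their log2 differences were 2.36, 1.34, 1.19, 1.19 and 1.14, and 0.62, 0.77, 0.03, 0.34 and 0.97 in other tumor cells. Bag3, a co-chaperone, stood at 80.9 [70.5 to 92.3] against 35.2 [28.3 to 43.4] CPM, while in other tumor cells it was at 34.1 and 33.3 CPM. Gm42418, which overlaps ribosomal RNA, was at 2314 against 1052 CPM and at 1926 against 980 CPM in other tumor cells. Lower in the Combo tumors were Hes1, Spata7, Krt18, Ppp1r10 and Notch2, with log2 differences from -0.90 to -1.11. In other tumor cells these were -0.98, -0.97, -0.74, -0.21 and -0.84, in the same order. Hes1, a target of Notch, stood at 35.1 [28.4 to 42.9] against 76.1 [65.7 to 87.6] CPM, and in other tumor cells at 52.1 and 103 CPM, so that it differed there as well.

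Cd74, the invariant chain of MHC class II, was decided by 1 cell. That cell held 164 of the 234 UMIs (70.1%) of Combo high-score cells, and without it their level was 26.5 CPM, and the log2 ratio over other tumor cells -1.13. The same cell, with 69292 UMIs in all, also held 57.1% of the 35 UMIs of H2-Aa and 51.4% of the 37 of H2-Ab1, beside 145 UMIs of Krt8 and 38 of Dynap. The dendritic cell markers were summed at 8.32 CPM in high-score and 11.9 CPM in other tumor cells of the Olaparib + LLY-283 tumors, and at 31.0 and 16.2 CPM in the Combo tumors, with H2-Aa and H2-Ab1 the most abundant. Flt3, Xcr1 and Clec9a were at 0 UMIs in both and Ccr7 and Cd209a in the first library.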

How the data were processed

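Per the file headers and the study's methods, tumors of 3 mice were pooled per group, single-cell 3' libraries (10x Genomics) were sequenced, and the authors made the deposited UMI count matrices with Cell Ranger on mm10. The matrix headers give version 6.1.2, the methods another. The submitters' processing notes also name bcl2fastq and Seurat 4.1.0, but the counts are whole and not normalized. The matrices hold 16115 and 7542 cells with 147214934 and 162522700 UMIs, and all 55450 gene identifiers were found in GENCODE M21.

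Tumor cells and high-score cells were chosen as stated at the start. Ties were broken by UMIs per cell. Levels are CPM of summed counts, and log2 ratios had 0.5 UMIs added to each sum. Genes needed 200 UMIs over the tumor cells of each library. Named are the 4 score genes, the 20 genes with the highest and 15 with the lowest ratio by the smaller of the 2 libraries' values, list genes past 1.5-fold and the most abundant 2 of each list, and the 5 genes most different in each direction between high-score cells of the libraries. The members and lists were chosen with earlier results of these data known. Scrublet (scanpy 1.11.5) set thresholds that called 0 of 16029 and 0 of 5956 cells, so doublets were kept. An alternative left out the 2055 and 284 cells with the highest scores, which held 5.86% and 2.60% of high-score cells and 11.0% and 2.45% of other tumor cells. Some genes are not reported here. The steps were tested on simulated data. With 1 library per group no replicate could be left out.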

Additional observations from a re-analysis of the deposited data

Results flagged for a closer look

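Among the genes named by the stated rule, Cd74, Cebpd and Jun had opposite signs in the 2 libraries with counting intervals clear of 0 in both, and the difference was not tested. The log2 ratio of high-score over other tumor cells was -1.17 for Cd74 in the Olaparib + LLY-283 tumors and 0.57 in the Combo tumors, where 1 cell held 70.1% of its UMIs. Without the top cell of each, the ratio was -1.31 and -1.13. For Cebpd the values were -0.34 and 0.50, and for Jun -0.198 and 0.0802.

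Cells outside the tumor gate also reached the score of the lowest high-score cell. Of cells left out only for Il24, 2.78% of 36 and 8.33% of 192 did so in the Olaparib + LLY-283 and Combo tumors. Of cells left out only for genes of G2 and mitosis, 6.55% of 4568 and 7.59% of 922 did so. For the UMI minimum alone it was 11.2% of 107 and 23.3% of 43, at median depths of 1448 and 690 UMIs. For keratins alone it was 4.87% of 945 and 6.82% of 88. For Tyrobp and Ptprc it was 2.14% of 327 and 1.29% of 310, and for Col5a2 2.86% of 105 and 0% of 30. Of cells of any type without a keratin UMI, 4.83% of 953 and 0.847% of 708 did so.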

How the results depend on the processing

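No paired analysis was possible because there is 1 library per group. Of 1540 values of the 35 ranked genes under the alternatives, 1303 moved by less than their counting interval, 221 by more, and 16 changed sign. The reported counts were 212 higher and 237 lower genes, with 34 and 13 list genes. The top 2% of cells gave 384 lower genes and 26 lower list genes, and the top 10% gave 127 higher and 103 lower genes and 8 lower list genes. A score on thinned cells gave 77 and 81 genes and 13 and 4 list genes. Choosing within bins of depth gave 142 lower genes. Without Dynap there were 60 and 63 genes and 9 and 4 list genes, and without Dynap and within bins of depth, chosen after seeing the data, 46 and 63 genes and 5 and 2 list genes. Adding 5 UMIs gave 478 and 47 genes and 8 lower list genes. It adds the same number to a much smaller sum of UMIs in high-score cells, which raises their ratios. A minimum of 50 UMIs per gene gave 366 and 415 genes, no minimum 5502 and 601 by the same construction, and one of 2000 UMIs, added after seeing the data, 51 and 36 of 3933 genes, with 22 and 6 list genes. Adding UMIs in proportion to each sum gave 193 and 269 genes. Leaving out the highest Scrublet scores gave 220 and 218, and the planned removal of called doublets gave no value because 0 were called. The proportional addition, the removal by Scrublet score, the thinning to 5000 UMIs and the removal of cells high in Sox9, Areg, Bdnf and Adm were also chosen after seeing the data.

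The sign changed for Lrrc40 (Combo, 0.18) with the thinned score, for Gprc5b (0.0795), Hs3st1 (0.11) and Lrrc40 (0.0323) in the Olaparib + LLY-283 tumors and Dcxr (0.0658) and Aspn (0.49) in the Combo tumors without Dynap, for Gprc5b (0.10), Lrrc40 (0.0866) and Zfp961 (0.12) and for Aspn (0.29), Slc6a2 (0.0537) and Lrrc40 (0.25) without Dynap and within bins of depth, and for Acap1 (-0.43 and -0.28), Cpeb3 (0.37) and Lrrc40 (0.78) in cells thinned to 5000 UMIs. The cause of these and of the other changes was not tested.

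For the genes left out of the choice, the difference in share of cells with a UMI without thinning was 9.59 and 30.05 percentage points for Klk10, 1.85 and 2.65 for Dynap and -1.33 for Cst6 in the Olaparib + LLY-283 tumors, where it was 1.103 after thinning to 1000 UMIs and 6.70 after thinning to 2000. High-score cells among neighbors in the Combo tumors were 16.5% with 10 principal components and 17.5% without thinning.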

Other observations

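Past 1.5-fold in both libraries, 0 of 6 tested 14-3-3 genes without Sfn, 7 genes of cystatins and their protease targets without Cst6, 7 cell cycle inhibitor genes, 4 desmosome genes, 9 annexin genes and 10 listed S100 genes differed between high-score and other tumor cells. The S100 list did not hold S100a7a, which was higher. Over all genes 2.12% were higher and 2.37% lower, so counts of 0 in lists this short are no result about them. Cdkn1a, the p21 inhibitor that p53 and other signals induce, stood at 199 against 167 CPM in the Olaparib + LLY-283 tumors and 231 against 126 CPM in the Combo tumors. Cst3, the most abundant cystatin, stood at 1963 against 2119 CPM and 2007 against 2213 CPM. Ywhae, the most abundant 14-3-3 gene, stood at 556 against 545 CPM and 528 against 575 CPM. Of 7 tested checkpoint ligand genes Pvr alone was past 1.5-fold in both libraries. In the Combo tumors 2 were higher and 2 lower, where 8.13% and 10% of all genes were. Cd47, the most abundant, stood at 141 against 178 CPM and 161 against 203 CPM.

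Cells rich in Tyrobp and Ptprc had been left out, which limits the RNA of immune cells by construction. The 10 macrophage markers were summed at 107 against 129 CPM in the Olaparib + LLY-283 tumors and 142 against 132 CPM in the Combo tumors, with Apoe the most abundant. The 9 neutrophil markers were summed at 201 against 229 CPM and 353 against 280 CPM, with S100a9 the most abundant. Both sums were thus below those of other tumor cells in the first library and above them in the second. The 10 T and NK cell markers were summed at 2.77 and 1.85 CPM in high-score cells, and all 5 B cell markers were at 0 UMIs there.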
